A study of Mus musculus with 18 samples.

Results

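The abundant long noncoding RNAs of the mouse larynx were taken as the annotated noncoding genes whose mean level over 18 libraries was at least 5 CPM (a gene's count scaled to a fixed library total). The annotation columns of the deposited count table class 9677 of 54532 genes as lincRNA, antisense, processed transcript, sense intronic, sense overlapping or bidirectional promoter RNA. Of these, 6873 had at least 1 count, and 224 reached the limit. All 224 were among the 17537 genes that could be tested, and 181 of them averaged at least 5 CPM in every group. In at least 1 of the 3 comparisons below 83 were called, and 141 in none. The matching share of all tested genes was not counted. It is at least 25.1%, the share called in e-cigarette against room air alone. The 224 genes were selected on their measured mean level over all libraries, and that level is described without a test. Just inside it lay 4930556M19Rik, 2010001A14Rik, D230017M19Rik, A630052C17Rik and Gm36266, with mean levels of 5.00 to 5.14 CPM, and just outside it 1500015A07Rik, Gm16907, Gm15751, Gm20045 and Gm15179, with 4.92 to 4.98 CPM.

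Whole larynges of male C57BL6/J mice, 8 to 9 weeks old, were profiled by RNA sequencing in 3 groups of 6 libraries. The first group inhaled smoke of 3R4F cigarettes, a reference cigarette made for research. Another inhaled aerosol of a JUUL e-cigarette of the Virginia tobacco flavour. The comparison group breathed room air. Every group, room air included, was placed in an inEXPOSE whole-body chamber for 1 h a day on 5 days a week for 4 weeks. Whether a library stands for 1 animal is not stated in the labels, so the p-values below measure the spread between these libraries.

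Long noncoding RNAs are transcripts without a long reading frame that are spliced and capped much like messenger RNAs. Some act in the nucleus, as scaffolds of nuclear bodies or at chromatin. Some act in the cytoplasm by binding proteins or microRNAs, and others matter mainly for what is cut out of them: host genes carry small nucleolar RNAs (snoRNAs), which guide chemical modification of ribosomal RNA, in their introns, or microRNAs in introns or exons. Antisense and divergent transcripts share a locus with a coding gene and often share its tissue pattern. The library kit named in the labels does not mark strand, so where such a pair overlaps in exons, reads of the RNA and of its coding partner cannot be told apart. Reads of unspliced coding RNA could also fall in a noncoding exon that lies within a coding intron.

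By the table's classes the 224 genes comprised 83 lincRNAs, 68 processed transcripts, 60 antisense RNAs, 7 bidirectional promoter RNAs, 5 sense intronic RNAs and 1 sense overlapping RNA. Their noncoding status is not settled for all: RefSeq lists 152 as long noncoding RNAs, 19 as protein coding and 2 as pseudogenes, and 51 had no RefSeq match. Cct6a, which encodes a subunit of the cytosolic chaperonin TRiC, Ifi30, a lysosomal thiol reductase, and Muc19, a gel-forming mucin of salivary-type glands, are among those that RefSeq gives as coding genes. The median gene had 2937.5 exonic bases, 4 exons in its longest-exon-count transcript and a GC content of 48.0%. In the GENCODE M21 annotation of the same build (GRCm38), 102 overlapped a coding gene, 44 started within 1000 bases of a coding gene on the opposite strand, 126 shared exon bases with some other gene, 21 hosted at least 1 snoRNA and 20 at least 1 microRNA.

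The microRNAs carried by the host genes that the results below turn on are shown first, because they are what such a host RNA yields. They are RefSeq mature sequences on GRCm38.p6, printed 5′ to 3′ with the seed, bases 2 to 8, in capitals. 3110039I08Rik (Mir100hg in RefSeq) at chr9:41327077-41716994 hosts miR-100, let-7a and a copy of miR-125b, and Mir99ahg at chr16:77236317-77773427 hosts miR-99a, let-7c and the other copy of miR-125b. H19 carries miR-675, Mir22hg miR-22, and Dnm3os miR-199a and miR-214.
miR-100-5p (Mir100hg): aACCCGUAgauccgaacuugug
miR-99a-5p (Mir99ahg): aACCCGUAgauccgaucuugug
let-7c-5p (Mir99ahg): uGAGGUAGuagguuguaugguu
let-7a-5p (Mir100hg): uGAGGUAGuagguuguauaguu
miR-125b-5p (Mir100hg and Mir99ahg): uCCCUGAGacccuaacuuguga
miR-675-5p (H19): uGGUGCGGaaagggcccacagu
miR-675-3p (H19): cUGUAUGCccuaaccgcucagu
miR-22-3p (Mir22hg): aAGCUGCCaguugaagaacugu
miR-199a-3p (Dnm3os): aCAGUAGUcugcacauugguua
miR-214-3p (Dnm3os): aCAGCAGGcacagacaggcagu
miR-100-5p and miR-99a-5p share the seed ACCCGUA and differ at 1 of 22 positions, A16U counted from the 5′ end with the miR-100-5p base first. let-7a-5p and let-7c-5p share the seed GAGGUAG. The mature microRNAs themselves were not measured in these libraries.

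The libraries held 15868783 to 20306390 counts with smoke, 16697879 to 22469894 with e-cigarette aerosol and 15551432 to 17072677 with room air, and the 224 RNAs took 0.644 to 0.861%, 0.645 to 0.839% and 0.680 to 0.846% of them. Thyroid tissue adjoins the larynx, and its transcripts differed between libraries: the thyroglobulin gene Tg took 5.87 to 9.24% of counts in smoke libraries. With e-cigarette aerosol its share was 2.69% in library 1, 0.0729% in library 2, 2.77% in library 3, 0.00854% in library 4, 0.00795% in library 5 and 0.271% in library 6. With room air it was 6.13 to 10.2%. The summed CPM of 11 thyroid follicle markers was 58304 to 95820 with smoke, 133 to 29366 with e-cigarette aerosol and 57522 to 99173 with room air. That of 12 fast skeletal muscle markers was 28969 to 40951, 36822 to 48592 and 20053 to 36361, that of 12 cartilage markers 211 to 692, 180 to 760 and 59.2 to 408, and that of 10 gland markers 20204 to 30254, 19306 to 54120 and 1204 to 25572, each in the same order of groups. Parathyroid markers (5 genes) summed to 22.9 to 3618 CPM with smoke, 10.4 to 24.4 CPM with e-cigarette aerosol and 37.4 to 7824 CPM with room air. Lymphoid and myeloid markers, of which the lysozyme gene Lyz2 gave most, summed to 3759 to 4289, 4880 to 10601 and 1907 to 6755 CPM, squamous and basal epithelial markers to 3305 to 18487, 7449 to 21395 and 3684 to 9548 CPM, ciliated cell markers to 189 to 235, 243 to 411 and 232 to 428 CPM and adipocyte markers to 1794 to 2456, 1438 to 1844 and 1452 to 2181 CPM. The part of these tissues in the results below was not tested beyond the fits with marker scores. In bulk tissue, fewer cells of a type and less RNA per cell cannot be told apart.

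A few RNAs made up most of the signal. Neat1 alone held 34.5% of the counts of the 224, the 10 most abundant held 58.9%, and all those with a mean under 10 CPM together held 11.7%. Per kilobase of exon the order of levels was another: Gm10076 had 251, Neat1 126, H19 117, AU040972 82.1, Norad 54.6, Malat1 49.0 and 1700020I14Rik 39.7 CPM per kilobase. The median coefficient of variation over 6 libraries was 16.6% with smoke, 18.2% with e-cigarette aerosol and 20.9% with room air.

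**Figure D1:**
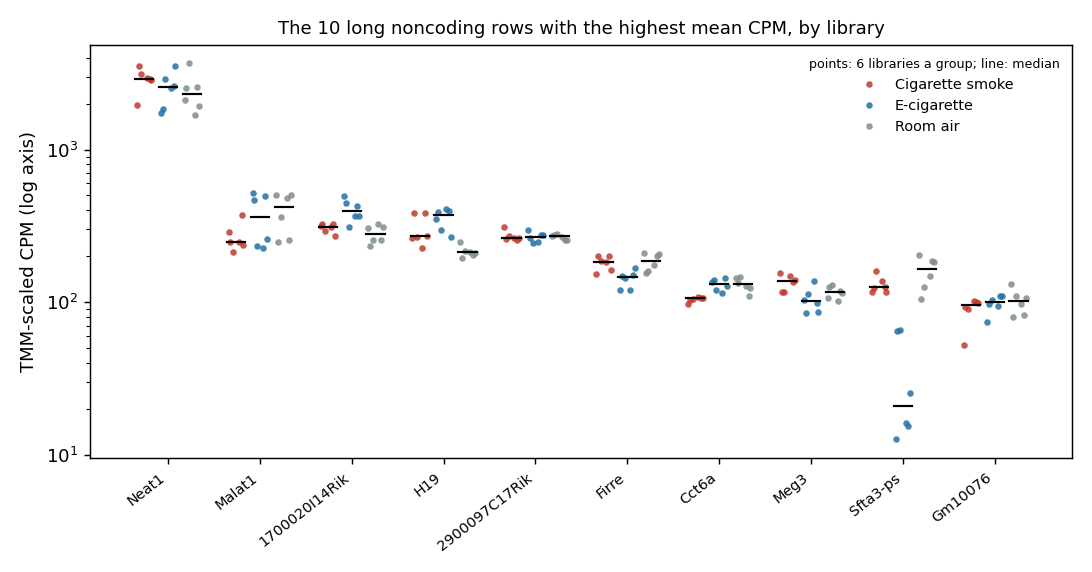
CPM scaled with TMM factors (log axis) of the 10 most abundant long noncoding RNAs, with 1 point per library and a line at the median of 6 libraries for smoke, e-cigarette and room air. Neat1 sits between 1692 and 3662 in every library, and Sfta3-ps is the one of the 10 whose e-cigarette libraries (12.6 to 65.6) lie far below the other groups.

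Neat1 (chr19:5824708-5845478, minus strand) is the RNA scaffold of paraspeckles, nuclear bodies that hold RNA-binding proteins and edited transcripts. Its TMM-scaled level, which is used in all that follows, had a lowest, median and highest value of 1963, 2914 and 3543 CPM with smoke, 1728, 2580 and 3546 CPM with e-cigarette aerosol and 1692, 2303 and 3662 CPM with room air. The 3 groups overlapped over most of their ranges. The log2 fold change was 0.26 ± 0.19 (SE) for smoke over room air and 0.07 ± 0.19 for e-cigarette over room air, with adjusted p of 0.48 and 0.82 (edgeR quasi-likelihood F test, Benjamini-Hochberg over all 17537 genes). Among 20 genes for paraspeckle proteins, none was called with smoke against room air by edgeR (4 at an unadjusted p below 0.05, 1 called by DESeq2). With e-cigarette aerosol against room air 2 of the 20 were called, both lower, beside 25.1% of all tested genes (13% lower). Sfpq, a core paraspeckle protein, fell with e-cigarette aerosol by 0.47 ± 0.14 on the log2 scale and Rbm14 by 0.38 ± 0.11, both at adjusted p = 0.017, and Nono, the partner of Sfpq, was at -0.12 ± 0.07 (adjusted p = 0.23). Frmd8, the nearest coding gene, 4224 bases from Neat1, fell with e-cigarette aerosol by 0.69 ± 0.10 (adjusted p = 6.3e-05), with 19.7 to 27.2 CPM with e-cigarette aerosol against 29.8 to 41.6 CPM with room air.

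Malat1 (chr19:5795690-5802672, minus strand), a nuclear speckle RNA on the same chromosome, split within groups rather than between them. The 6 smoke libraries lay between 213 and 374 CPM. In e-cigarette libraries 1, 2 and 5 it had 467, 493 and 520 CPM, and in libraries 3, 4 and 6 it had 235, 227 and 258 CPM. Room air libraries 4, 5 and 6 had 483, 503 and 503 CPM, while libraries 1, 2 and 3 had 247, 255 and 361 CPM. Every smoke library lay below the upper 3 libraries of both other groups. No comparison was called (smoke over room air -0.55 ± 0.25, adjusted p = 0.22; e-cigarette over room air -0.10 ± 0.24, adjusted p = 0.81).

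Norad (2900097C17Rik in the table, chr2:156388065-156392979), a cytoplasmic RNA that binds Pumilio proteins, was the steadiest of the abundant RNAs. Its lowest, median and highest values were 256, 263 and 310 CPM with smoke, 246, 269 and 296 CPM with e-cigarette aerosol and 254, 270 and 280 CPM with room air. The log2 fold changes were 0.02 ± 0.07 for smoke over room air and -0.00 ± 0.07 for e-cigarette over room air, with adjusted p of 0.92 and 0.98. Tug1, Gm10076 and the snoRNA host Gas5 were likewise not called in any comparison.

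With smoke, 7 of the 224 RNAs were called against room air at an adjusted p below 0.05 (edgeR), 5 higher and 2 lower. That is 3.13% of them, where 1.59% of all tested genes (0.975% higher, 0.616% lower) and 1.89% of protein-coding genes with at least 5 CPM were called. The groups did not overlap for 8 higher and 2 lower RNAs, 4.46% of the 224, where 2.43% of all tested genes had groups that did not overlap (1.54% higher, 0.89% lower). The median log2 fold change of the 224 was 0.07, beside 0.01 over all tested genes, and 52 had an unadjusted p below 0.05. With library totals in place of TMM factors the split became 2 higher and 2 lower. The calls depend on the libraries: 1 of the 7, 4933431E20Rik, was called in each of the 18 fits that left out 1 library.

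4933431E20Rik (chr3:107888850-107896213) is an antisense RNA that overlaps Eps8l3 and shares 964 exon bases with it. Reads of the pair cannot be told apart in those bases. 4933431E20Rik had a lowest, median and highest level of 10.2, 11.1 and 13.2 CPM with smoke, against 5.13, 6.98 and 8.66 CPM with room air. It rose with smoke by 0.70 ± 0.13 on the log2 scale (adjusted p = 0.011), and every smoke library lay above every room air library. It stood at 11.2, 14.7 and 16.5 CPM with e-cigarette aerosol, 1.01 ± 0.13 over room air (adjusted p = 1.5e-05). Both comparisons use the same room air libraries.

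A530020G20Rik (chr3:121531619-121536206), antisense to the choline transporter-like gene Slc44a3 and sharing 349 exon bases with it, was called higher with smoke than in either other group. Its levels were 11.9, 13.6 and 15.0 CPM with smoke, 7.39, 8.51 and 10.6 CPM with e-cigarette aerosol and 2.82, 6.82 and 10.4 CPM with room air. No smoke library overlapped either other group. It rose with smoke by 0.97 ± 0.21 against room air (adjusted p = 0.028) and by 0.63 ± 0.21 against e-cigarette aerosol (adjusted p = 0.044). The calls held in 12 and 7 of 18 fits without 1 library, with adjusted p up to 0.072 and 0.092. Slc44a3 itself was at -0.19 ± 0.15 with smoke over room air (adjusted p = 0.5), and it fell with e-cigarette aerosol by 1.31 ± 0.16 (adjusted p = 1.2e-05).

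Fendrr (chr8:121054882-121083110, minus strand), which in mouse embryos is needed for the development of lateral mesoderm derivatives such as the heart and body wall, had 7.27, 9.57 and 12.1 CPM with smoke, 6.12, 10.5 and 12.5 CPM with e-cigarette aerosol and 2.62, 4.29 and 7.71 CPM with room air. It rose with smoke by 0.99 ± 0.24 (adjusted p = 0.044), a call made in 5 of the 18 fits without 1 library, in which adjusted p reached 0.11. It rose with e-cigarette aerosol by 1.02 ± 0.24 (adjusted p = 0.0042), a call made in all 18. Room air libraries 4, 5 and 6, which are low in gland and cartilage transcripts, had 3.27, 2.62 and 3.45 CPM and libraries 1, 2 and 3 had 6.98, 7.71 and 5.13 CPM; the part of those tissues in the result was not tested. Without room air 4 to 6 the values were 0.53 for smoke and 0.57 for e-cigarette. Foxf1, the nearest coding gene at 1276 bases, was not called in either comparison (0.23 ± 0.21 and -0.10 ± 0.21, adjusted p = 0.57 and 0.77).

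The other smoke calls were smaller. D230017M19Rik rose by 0.58 (adjusted p = 0.049) and Gm16576, divergent to Sun2, by 0.54 (adjusted p = 0.046). D930016D06Rik, the RefSeq coding gene Thoc2l, fell by 0.42 ± 0.10 (adjusted p = 0.032), with 14.9 to 19.2 CPM with smoke and 19.6 to 25.9 CPM with room air. Cct6a fell by 0.32 ± 0.08 (adjusted p = 0.043), with 97.8, 106 and 109 CPM with smoke, 115, 132 and 144 CPM with e-cigarette aerosol and 110, 131 and 146 CPM with room air, so that smoke lay below both other groups without overlap. Cct6a against e-cigarette aerosol fell by 0.32 (adjusted p = 0.0087) in all 18 fits without 1 library, whereas the call against room air held in 6, with an adjusted p of up to 0.095. D930016D06Rik held in 11 of the 18, Gm16576 in 3 and D230017M19Rik in 2, with adjusted p of up to 0.078, 0.12 and 0.11. D930016D06Rik and D230017M19Rik were also called with e-cigarette aerosol against the same room air libraries, in the same directions. Without 1 library those e-cigarette values ran from -0.33 to -0.25 and from 0.31 to 0.47, with calls in 12 and 2 of 18 fits.

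**Figure D2:**
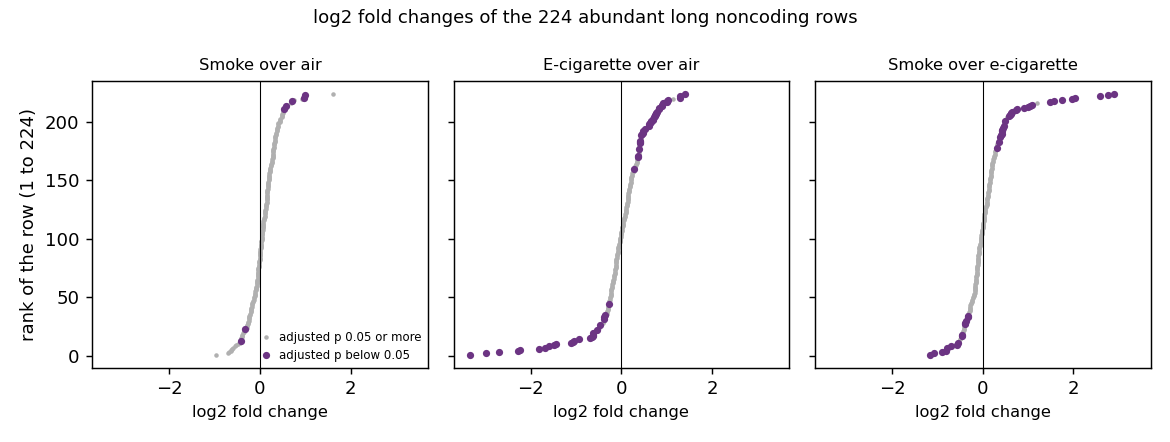
Log2 fold change of the 224 RNAs in rank order for smoke over room air, e-cigarette over room air and smoke over e-cigarette, with called RNAs (edgeR adjusted p below 0.05) in colour. The e-cigarette comparison has 61 called RNAs and a lower tail reaching -3.35, while the smoke comparison has 7.

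With e-cigarette aerosol, 61 of the 224 RNAs were called against room air, 36 higher and 25 lower. That is 27.2% of them, close to the 25.1% of all tested genes (12.1% higher, 13% lower) and the 28.1% of protein-coding genes with at least 5 CPM that were called in the same comparison. Groups did not overlap for 13 higher and 17 lower RNAs, 13.4% of the 224, beside 10.5% of all tested genes (4.5% higher, 6% lower). The median log2 fold change was 0.03, beside 0.01 over all tested genes, and 19 of the 61 changed at least 2-fold. With library totals in place of TMM factors the split was 24 higher and 33 lower, with the median of all genes shifted by -0.11. Over the fits without 1 library, 44 of the 61 were called in every one.

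The thyroid markers were lower in the same e-cigarette libraries. With a score of thyroid markers as a covariate, none of the 224 RNAs was called by edgeR (25 at an unadjusted p below 0.05), and with 4 marker scores 3 were. The 61 RNAs kept their sign in 58 cases with the thyroid score, at a median of 0.66 of their log2 fold change, and in 55 with 4 scores, at a median of 0.48. Since no e-cigarette library reached the thyroid level of any other library, the score and the exposure cannot be told apart in such a fit. Without e-cigarette libraries 2, 4, 5 and 6, in which Tg took under 1% of counts, 11 RNAs were called and all 61 kept their sign. The 11 comprised 7 lower RNAs, Gm15691, 4930426D05Rik, AC154546.2, Gm12446, Sfta3-ps, Gm26973 and Gm13111, and 4 higher ones, H19, Myhas, Nctc1 and 4933431E20Rik. The list of 11 thyroid markers had 9 members called lower and none higher with e-cigarette aerosol. None was called with smoke by edgeR or DESeq2 (0 at an unadjusted p below 0.05 by edgeR). None of the 11 markers was at 0 in any library. Of all tested genes, 13% were called lower and 12.1% higher with e-cigarette aerosol, and 1.59% were called with smoke.

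The largest fall was that of Gm15691, an RNA without a known role. It had 13.0, 16.4 and 33.1 CPM with smoke, 0, 0.334 and 8.44 CPM with e-cigarette aerosol and 15.6, 23.3 and 42.4 CPM with room air. It fell with e-cigarette aerosol by 3.35 ± 0.79 against room air (adjusted p = 0.0055), with no overlap of groups. Within that group the levels followed Tg: libraries 1 and 3, the ones with most Tg, had 8.44 and 5.64 CPM and the other 4 had 0 to 0.506 CPM. With smoke Gm15691 was at -0.44 ± 0.69 (adjusted p = 0.77).

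Sfta3-ps, called Nanci in mouse lung studies, lies 2531 bases from Nkx2-1, the homeobox factor of thyroid, lung and forebrain, and Gm26973 overlaps Nkx2-1 on the other strand without shared exon bases. Sfta3-ps (chr12:56488321-56529427) had 116, 125 and 159 CPM with smoke, 12.6, 20.9 and 65.6 CPM with e-cigarette aerosol and 105, 165 and 204 CPM with room air, a fall of 2.24 ± 0.38 (adjusted p = 0.00044). Gm26973 (chr12:56535343-56607476) had 6.20, 7.93 and 9.12 CPM, 0.981, 2.08 and 3.67 CPM and 5.96, 7.60 and 9.22 CPM in the same order, a fall of 1.68 ± 0.24 (adjusted p = 4.5e-05). Their e-cigarette libraries lay below every other library. Nkx2-1 fell by 2.13 ± 0.30 (adjusted p = 8.8e-05), so that 2 noncoding RNAs and the coding gene of the locus stood lower together.

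More RNAs at coding genes stood lower in the same libraries. Gm12446, whose span covers the thyroid factor gene Foxe1, fell by 2.28 ± 0.39 (adjusted p = 0.0004), as Foxe1 did by 2.57 ± 0.49. AC154546.2, within the potassium channel gene Kcnj15, fell by 2.70 ± 0.49 (adjusted p = 0.00062), and Kcnj15 fell by 1.65 ± 0.26. Tbx3os1, antisense to the T-box gene Tbx3, fell by 1.48 ± 0.24 (adjusted p = 0.00019), beside 1.92 ± 0.18 for Tbx3. In each case smoke and room air overlapped and every e-cigarette library lay below both. Gm13111, divergent to Prdm16, a factor of brown fat and craniofacial development, fell by 1.59 ± 0.25 (adjusted p = 0.00013) and Prdm16 by 0.57 ± 0.11. 4930426D05Rik, which overlaps Klhl14 and which RefSeq gives as protein coding, fell by 2.99 ± 0.76 (adjusted p = 0.0094). It shares 610 exon bases with Klhl14, while Gm12446 shares 102 with Foxe1 and Tbx3os1 115 with Tbx3. Reads in those bases cannot be told apart, so these pairs are not separate measurements. AC154546.2 shares no exon base with Kcnj15, but reads of unspliced Kcnj15 RNA could fall in its exons.

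Outside the thyroid-named loci, 3110039I08Rik (Mir100hg) fell with e-cigarette aerosol by 0.69 ± 0.12 (adjusted p = 0.00042). Its levels were 88.3, 103 and 128 CPM with smoke, 46.0, 50.6 and 77.4 CPM with e-cigarette aerosol and 79.6, 87.8 and 105 CPM with room air. Every e-cigarette library lay below every library of the other groups, and e-cigarette libraries 1 and 3 were again the highest of their group, at 61.6 and 77.4 CPM. Ubash3b, the nearest coding gene, fell by 2.71 ± 0.33 (adjusted p = 1.9e-05). Mir99ahg, the host of the same seeds as shown above, had 7.38, 8.39 and 12.9 CPM with smoke, 7.38, 9.82 and 15.6 CPM with e-cigarette aerosol and 6.28, 8.10 and 10.2 CPM with room air, and was called in no comparison (e-cigarette over room air 0.33 ± 0.18, adjusted p = 0.19). Whether the pair of hosts differed from each other in response was not tested.

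Firre, an X-linked nuclear RNA that anchors chromatin through hnRNPU, fell with e-cigarette aerosol by 0.38 ± 0.11 (adjusted p = 0.011), with 153, 185 and 200 CPM with smoke, 120, 145 and 168 CPM with e-cigarette aerosol and 155, 187 and 211 CPM with room air. 1700020I14Rik, named Oip5os1 in RefSeq and known as Cyrano for its site that drives decay of miR-7, moved the other way, to 270, 313 and 328 CPM with smoke, 313, 396 and 496 CPM with e-cigarette aerosol and 235, 280 and 323 CPM with room air. It rose with e-cigarette aerosol by 0.52 ± 0.11 (adjusted p = 0.0017), and the ranges of the e-cigarette and room air libraries touched only between 313 and 323 CPM. Gm26917, which lies at the ribosomal RNA copy of chromosome 17, fell by 1.44 ± 0.42 (adjusted p = 0.019); room air library 3 held 105 CPM against 22.2 to 47.3 CPM in the other 5 room air libraries. Gm43305, which had 1.56, 2.89 and 6.93 CPM with e-cigarette aerosol and 3.04, 6.42 and 38.9 CPM with room air, fell by 1.81 ± 0.58 (adjusted p = 0.03). Its highest value was again that of room air 3, without which it was at -0.93 and not called.

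**Figure D3:**
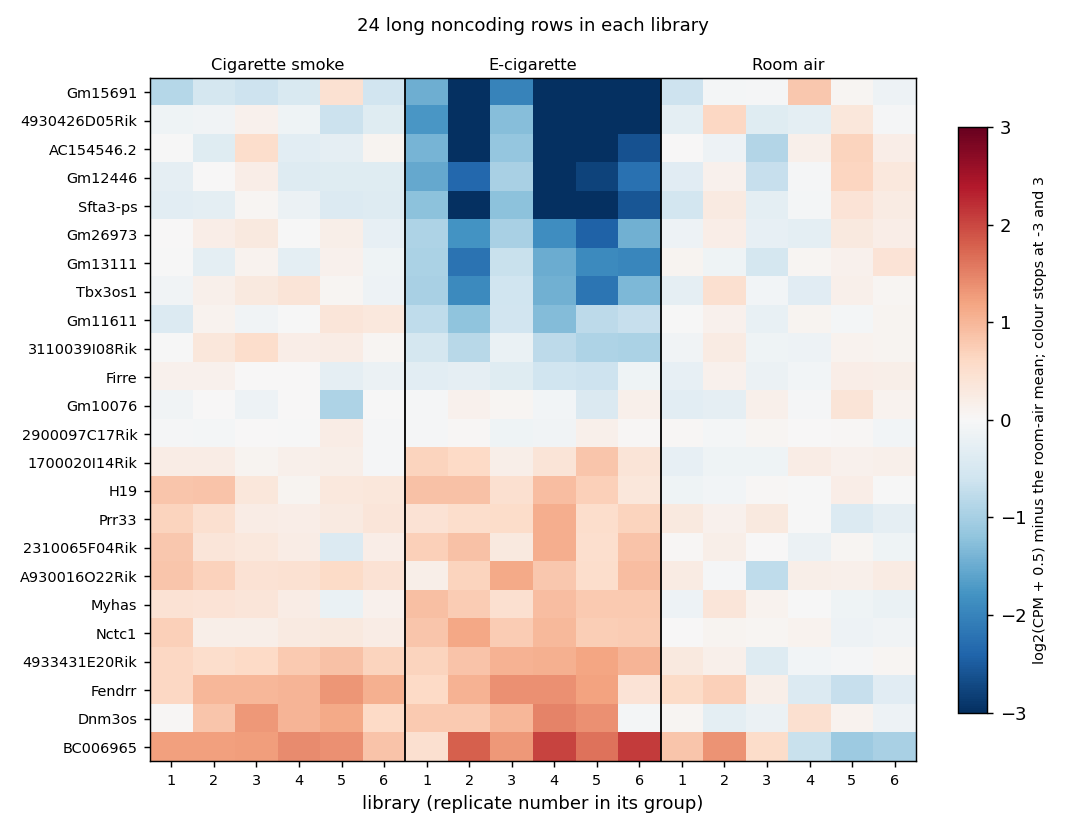
Log2 level (CPM + 0.5) minus the room air mean for 24 named RNAs (down) in 18 libraries (across, smoke, e-cigarette, room air), with colours ending at -3 and 3. E-cigarette libraries 2, 4, 5 and 6 are the bluest for Gm15691, 4930426D05Rik and Sfta3-ps, and libraries 1 and 3 are less so.

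A pair of neighbouring RNAs on chromosome 7 rose with e-cigarette aerosol. Nctc1 (chr7:142544609-142558596), transcribed in muscle from the enhancer region that H19 and Igf2 share in mouse, had 35.5, 36.9 and 51.7 CPM with smoke, 52.5, 54.6 and 70.0 CPM with e-cigarette aerosol and 27.9, 32.0 and 33.9 CPM with room air. The 3 groups did not overlap. It rose by 0.89 ± 0.10 with e-cigarette aerosol against room air (adjusted p = 6.9e-06), and with smoke it was at 0.32 ± 0.10 (adjusted p = 0.091). H19 (chr7:142575529-142578143), the imprinted RNA expressed from the maternal copy, lies 16.9 kb away and had 227, 271 and 385 CPM, 269, 370 and 405 CPM and 195, 212 and 246 CPM in the same order. It rose with e-cigarette aerosol by 0.71 ± 0.13 (adjusted p = 0.00055) without overlap, and was at 0.49 ± 0.13 with smoke (adjusted p = 0.06). Mrpl23, the nearest coding gene of both, was at 0.09 ± 0.15 with e-cigarette aerosol over room air (adjusted p = 0.71).

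Prr33, 37.8 kb beyond Nctc1 and overlapping Tnnt3 (fast troponin T) without shared exon bases, had 55.5, 59.7 and 76.6 CPM with smoke, 65.5, 70.5 and 102 CPM with e-cigarette aerosol and 36.0, 50.1 and 58.7 CPM with room air. It rose with e-cigarette aerosol by 0.63 ± 0.13 (adjusted p = 0.0014). On chromosome 11, Myhas, antisense to the fast myosin gene Myh1, rose by 0.78 ± 0.12 (adjusted p = 8.5e-05) and 2310065F04Rik, 91.2 kb away, by 0.75 ± 0.15 (adjusted p = 0.0014). Myhas had 21.8 to 34.0 CPM with smoke, 34.9 to 48.1 CPM with e-cigarette aerosol and 21.6 to 32.3 CPM with room air, so that the e-cigarette group stood apart from both. A930016O22Rik, antisense to the muscle creatine kinase gene Ckm, rose by 0.77 ± 0.19 (adjusted p = 0.0053). The overlapping coding genes rose too: Myh1 rose by 0.73 ± 0.18, Ckm by 0.61 ± 0.13 and Tnnt3 by 0.52 ± 0.13. Myhas shares 515 exon bases with Myh1, and A930016O22Rik shares 451 with Ckm. Reads in those bases cannot be told apart, so these pairs are not separate measurements. Of 12 fast muscle markers, 8 were called higher with e-cigarette aerosol and none lower. None was called with smoke by edgeR (3 at an unadjusted p below 0.05) or DESeq2. Of all tested genes, 12.1% were called higher and 13% lower with e-cigarette aerosol, and 1.59% were called with smoke. The part of muscle content in these values was not tested.

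BC006965 (chr11:112663927-112781976, minus strand), whose outermost annotated start faces the cartilage factor gene Sox9 at a distance of 248 bases, had 11.6, 15.4 and 17.6 CPM with smoke, 8.81, 21.5 and 28.3 CPM with e-cigarette aerosol and 2.68, 6.52 and 16.5 CPM with room air, the largest rise of the 224 at 1.40 ± 0.39 (adjusted p = 0.015). Sox9 itself fell by 1.11 ± 0.22 (adjusted p = 0.0013), the opposite direction. With 4 marker scores as covariates the value for BC006965 was -0.10. Room air libraries 4, 5 and 6 held 2.68 to 3.74 CPM, and their 3 fellow libraries 9.30 to 16.5 CPM. The 12 cartilage markers were all above 0 on the log2 scale with e-cigarette aerosol, 4 of them called. All were above 0 with smoke, none of them called by edgeR (9 at an unadjusted p below 0.05, 2 called by DESeq2). Of all tested genes, 12.1% were called higher with e-cigarette aerosol and 0.975% with smoke.

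As BC006965 had the largest rise, the promoter that RefSeq lists for it is shown. It is an internal start, 70.6 kb from the outermost one, with 9 of 18 annotated transcripts starting within 100 bases of it, and is not the one beside Sox9 (300 bases, GRCm38.p6, chr11:112711307-112711606, minus strand, RefSeq, 5′ to 3′, ending 50 bases after the start). The capitals mark the sequence TATAAA, which begins 34 bases before the start.
BC006965 promoter: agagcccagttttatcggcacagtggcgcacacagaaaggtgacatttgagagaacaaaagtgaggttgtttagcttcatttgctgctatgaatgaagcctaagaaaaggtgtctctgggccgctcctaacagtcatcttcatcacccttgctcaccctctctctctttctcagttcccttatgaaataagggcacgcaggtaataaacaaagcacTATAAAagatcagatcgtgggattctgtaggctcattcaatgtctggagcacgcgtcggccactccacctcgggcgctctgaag
TATAAA on the given strand, beginning 20 to 40 bases before the start, was present in 10 of 168 promoters of these RNAs, 5.95%, and in 655 of 32851 promoters of all genes in the table, 1.99%. The promoters with it belong to 9 RNAs, among them Meg3, Snhg5, Snhg8 and Muc19. A match is a description of the letters only.

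Dnm3os (chr1:162217623-162225550), the antisense RNA in Dnm3 that carries miR-199a and miR-214 in mesenchyme, had 3.76, 7.34 and 9.68 CPM with smoke, 3.45, 7.21 and 11.1 CPM with e-cigarette aerosol and 2.88, 3.53 and 5.26 CPM with room air. It rose with e-cigarette aerosol by 1.04 ± 0.25 (adjusted p = 0.0049), and was at 0.93 ± 0.25 with smoke (adjusted p = 0.061). The medians of both exposed groups were above the highest room air library, though their lowest libraries were not. Dnm3 was not called (0.15 with e-cigarette aerosol). Gm47865, 2010016I18Rik, 5930430L01Rik and 4930429F24Rik, RNAs without a known role, rose with e-cigarette aerosol by 1.30, 1.30, 0.91 and 0.89, with adjusted p of 0.017, 0.0017, 0.0071 and 0.00052.

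**Figure D4:**
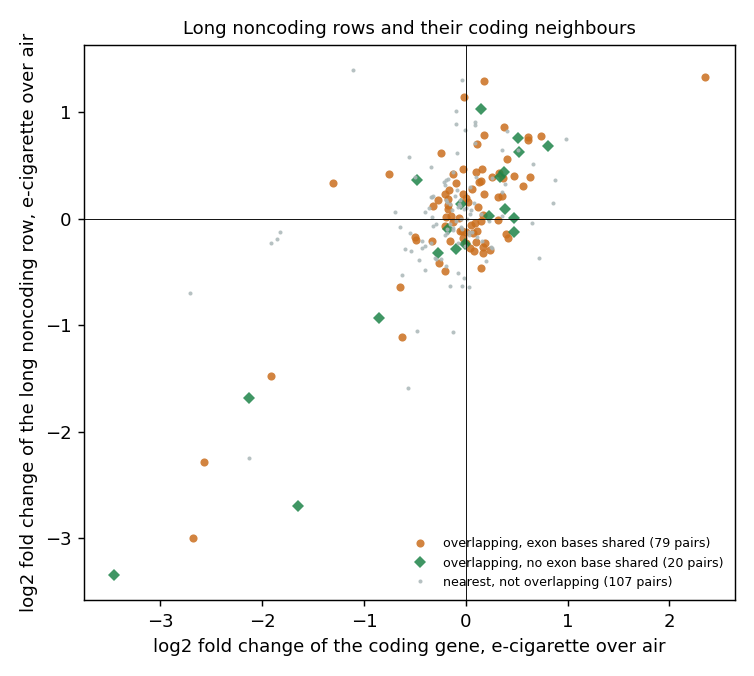
Log2 fold change of each RNA (vertical) against that of its coding neighbour (horizontal) for e-cigarette over room air, with 79 pairs that share exon bases, 20 pairs that overlap without shared exon bases and 107 nearest pairs in separate symbols. Most pairs crowd near 0, and the RNA at Foxe1 (-2.28, beside -2.57 for Foxe1) is among those toward the lower left end.

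The direction of the RNAs went with that of overlapping coding genes. With e-cigarette aerosol against room air, the log2 fold changes of 99 overlapping pairs had a Pearson r of 0.83 across genes, and of the 10 called lower, 9 had a coding partner that was also lower. Of the 18 called higher, 7 had a partner that was higher, 2 one that was lower and 9 one that was not called. Since 79 of those pairs share exon bases and reads, the 20 pairs with no shared exon base were also taken alone. There r was 0.92, and 7 of 8 called RNAs had a partner called in the same direction. Reads of unspliced coding RNA could fall in the exons of these 20 RNAs too, so they are not shown to be separate measurements. For 107 RNAs beside but not over a coding gene, r was 0.36. The points share libraries, and genes are not independent replicates. The pairs far from 0 include the ones at Klhl14, Foxe1, Kcnj15, Nkx2-1 and Tbx3 named above. On the higher side they include the pair of Muc19 with Smgc. RefSeq gives Muc19 as the coding gene Smgc itself, and the pair shares 95 exon bases on the same strand. It is therefore not a noncoding RNA beside a separate coding gene.

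Smoke against e-cigarette aerosol had 44 RNAs called, 29 higher and 15 lower with smoke, 19.6% of the 224 beside 16.5% of all tested genes (10.4% higher, 6.1% lower) and 18.8% of protein-coding genes with at least 5 CPM. Groups did not overlap for 18 higher and 8 lower RNAs, 11.6%, beside 9.37% of all tested genes (6.65% higher, 2.72% lower). With library totals in place of TMM factors the split was 28 higher and 7 lower. Without e-cigarette libraries 2, 4, 5 and 6, 3 RNAs were called, and 22 of the 44 held in every fit without 1 library. The comparison shares its e-cigarette libraries with the one above, so its largest values, 2.90 for Gm15691, 2.75 for 4930426D05Rik, 2.60 for AC154546.2, 2.03 for Gm12446 and 1.96 for Sfta3-ps, return to the same libraries.

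Some RNAs were called in this direct comparison with values on opposite sides of room air. Meg3 (chr12:109541001-109571726), a maternally expressed RNA of the Dlk1-Dio3 domain, had 116, 137 and 154 CPM with smoke, 85.4, 102 and 138 CPM with e-cigarette aerosol and 101, 116 and 130 CPM with room air. It was higher with smoke than with e-cigarette aerosol by 0.37 ± 0.11 (adjusted p = 0.026), a call made in 13 of 18 fits without 1 library, and was at 0.22 and -0.16 against room air (adjusted p = 0.29 and 0.32). Peg13, the paternally expressed RNA within Trappc9, was higher by 0.45 ± 0.15 (adjusted p = 0.041) in 10 of the 18. Tmem250-ps had 35.7, 37.3 and 41.1 CPM with smoke, 24.2, 26.3 and 29.6 CPM with e-cigarette aerosol and 31.7, 33.6 and 42.3 CPM with room air, higher with smoke than with e-cigarette aerosol by 0.49 ± 0.08 (adjusted p = 0.0004).

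Among those lower with smoke than with e-cigarette aerosol, the largest values were those of C530043A13Rik (-1.17 ± 0.33, adjusted p = 0.02), Gm34059 (-1.08 ± 0.26, adjusted p = 0.0063), C230072F16Rik (-0.91 ± 0.27, adjusted p = 0.025), AU040972 (-0.81 ± 0.23, adjusted p = 0.022) and D830026I12Rik (-0.78 ± 0.24, adjusted p = 0.032). AU040972, antisense in Nf1, had 43.5, 60.8 and 73.0 CPM with smoke, 62.8, 100 and 140 CPM with e-cigarette aerosol and 54.8, 83.8 and 145 CPM with room air. The smoke and e-cigarette ranges met between 62.8 and 73.0 CPM. The call was lost without smoke 5 or e-cigarette 6, at an adjusted p of up to 0.052. None of these 5 was called against room air in either comparison.

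The 8 imprinted RNAs among the 224 had 0 called with smoke against room air by edgeR (2 at an unadjusted p below 0.05, 1 called by DESeq2), 2 higher with e-cigarette aerosol (H19 and Nctc1), and 2 higher (Meg3 and Peg13) and 1 lower (Nctc1) with smoke against e-cigarette aerosol. Of all tested genes, 1.59%, 25.1% and 16.5% were called in these comparisons, in the same order. Kcnq1ot1, a paternally expressed antisense RNA that silences its domain, and Rian, a maternally expressed neighbour of Meg3, were not called in any comparison: Rian had 46.6 to 62.9 CPM with smoke, 50.6 to 77.9 CPM with e-cigarette aerosol and 43.8 to 65.0 CPM with room air. Of 17 imprinted coding genes tested, 4 rose with e-cigarette aerosol (Peg3 0.42, Cdkn1c 0.71, Plagl1 0.64 and Igf2r 0.34) and Mest fell by 1.27 ± 0.16 (adjusted p = 1.5e-05), while none was called with smoke by edgeR (4 at an unadjusted p below 0.05, 1 called by DESeq2). With e-cigarette aerosol against room air, 28.1% of protein-coding genes with at least 5 CPM were called. Igf2, the coding partner of H19, stayed at 0.0638 to 0.757 CPM with smoke, 0.367 to 1.06 CPM with e-cigarette aerosol and 0.234 to 0.481 CPM with room air.

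The 21 snoRNA hosts had 16 members below 0 with smoke against room air and a median log2 fold change of -0.19, where 48.4% of all tested genes were below 0 and their median was 0.01. Their summed level was 378 to 503 CPM with smoke, 440 to 558 CPM with e-cigarette aerosol and 468 to 624 CPM with room air. Smoke library 5 was the lowest of the 18, and without it 14 were below 0 at a median of -0.06. The smoke median was -0.08 without room air 5 and -0.23 without room air 4, 5 and 6. Cct6a, which hosts snoRNAs in its introns, was the only one of the 21 called with smoke, where 1.59% of all tested genes were called. With e-cigarette aerosol 16 were below 0 with a median of -0.26, 1 called higher and 2 lower. Of all tested genes, 49.2% were below 0 in that comparison, with a median of 0.01, and 25.1% were called. The median of the hosts was -0.19 without e-cigarette 5 and -0.15 without e-cigarette 2, 4, 5 and 6. It was -0.36 without room air 4, 5 and 6. Gas5 was at -0.29 ± 0.15, Snhg1 at -0.42 ± 0.17, Snhg12 at -0.23 ± 0.20, Snhg15 at -0.48 ± 0.19 and Zfas1 at -0.21 ± 0.25 with smoke over room air, with adjusted p from 0.16 to 0.67. Nop58, a core protein of the particles that snoRNAs form, fell with smoke by 0.65 ± 0.15 (adjusted p = 0.029). All 10 snoRNP protein genes of the list were below 0 with smoke, of which Nop58 was the one called. With e-cigarette aerosol over room air 9 of the 10 were below 0, and 1 was called lower.

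**Figure D5:**
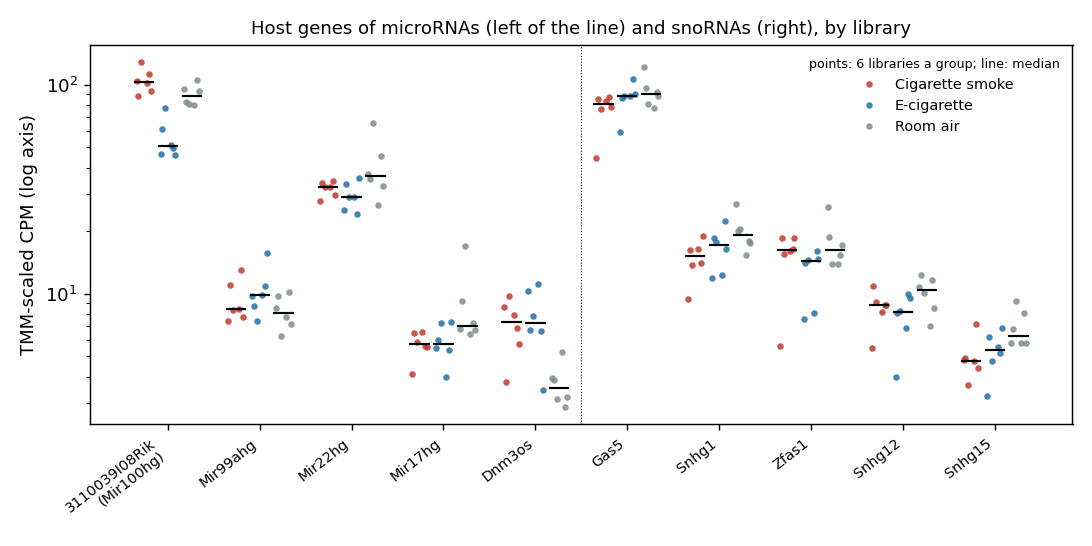
TMM-scaled CPM (log axis) of 5 microRNA hosts, left of the dotted line, and 5 snoRNA hosts, right of it, with 1 point per library and a line at the median of 6 libraries for smoke, e-cigarette and room air. Mir100hg is lowest with e-cigarette aerosol (46.0 to 77.4), Dnm3os is lowest with room air (median 3.53), and 1 smoke library lies low for Gas5 (44.5) and Zfas1 (5.62).

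Genes of snoRNA hosts often begin with a run of pyrimidines, the start of the class of messages whose translation follows growth signals. The 40 bases around the start (20 before and 20 after, GRCm38.p6, RefSeq, 5′ to 3′) are shown for 4 hosts and for the second start of Gas5. The 4 hosts have a run of at least 7 C or T. The run at this Gas5 start is 6 bases, below the limit of 7 used here, and is left unmarked. Capitals mark a run of at least 7 C or T within 5 bases of the start.
Snhg1, chr19:8723467-8723506: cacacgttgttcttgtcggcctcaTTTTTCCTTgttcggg
Snhg12, chr4:132308658-132308697: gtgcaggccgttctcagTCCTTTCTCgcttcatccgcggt
Snhg8, chr3:123508317-123508356, minus strand: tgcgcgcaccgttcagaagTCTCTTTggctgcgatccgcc
2410006H16Rik, chr11:62602857-62602896: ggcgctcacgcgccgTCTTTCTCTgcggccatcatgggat
Gas5, chr1:161035146-161035185: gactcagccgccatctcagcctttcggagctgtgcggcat
Such a run was found in 9 of 24 snoRNA host promoters, 37.5%, in 36 of 168 promoters of the 224 RNAs, 21.4%, and in 4630 of 32851 promoters of the table, 14.1%. Of the RNAs shown, none was called in a comparison with room air.

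The 20 microRNA hosts had 4 called higher and 4 lower with e-cigarette aerosol and none called with smoke against room air (7 at an unadjusted p below 0.05 by edgeR, 2 called higher by DESeq2). Of all tested genes, 12.1% were called higher and 13% lower with e-cigarette aerosol, and 1.59% were called with smoke. The summed level of the 20 hosts was 744 to 909 CPM with smoke, 677 to 871 CPM with e-cigarette aerosol and 630 to 747 CPM with room air. Mir22hg, whose microRNA is shown above, had 27.8, 32.3 and 34.6 CPM with smoke, 24.1, 29.0 and 35.6 CPM with e-cigarette aerosol and 26.7, 36.3 and 65.2 CPM with room air. It fell with e-cigarette aerosol by 0.46 ± 0.16 (adjusted p = 0.039). The call held in 12 of 18 fits without 1 library, and without room air 3 the value was -0.29 and not called. Mir17hg, host of an oncogenic microRNA cluster, was at -0.58 ± 0.22 (adjusted p = 0.056).

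AW112010, an RNA of activated immune cells, was not called (0.02 ± 0.16 with smoke and -0.02 ± 0.16 with e-cigarette aerosol over room air, adjusted p = 0.96 and 0.95), with 7.19 to 13.1 CPM with smoke, 7.82 to 11.5 CPM with e-cigarette aerosol and 7.48 to 13.7 CPM with room air. Muc19 had 37.2, 53.7 and 68.1 CPM with smoke, 16.2, 48.2 and 79.9 CPM with e-cigarette aerosol and 0.911, 14.8 and 39.2 CPM with room air. Its room air libraries 4, 5 and 6, low in gland transcripts, held 4.79, 0.911 and 1.34 CPM, and the comparisons were not called (1.60 ± 0.71 and 1.33 ± 0.71, adjusted p = 0.22 and 0.18). Homeobox cluster RNAs of the list, such as Hotairm1, did not reach 5 CPM.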

How the data were processed

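Total RNA of whole larynges was sequenced in 18 libraries. The deposited table holds raw counts per gene. The submitters' processing notes name STAR, featureCounts 1.5.0-p3 and GRCm38 (mm10). The sources used here do not give the strand setting, annotation release or filters. Groups were taken from the treatment labels and tables from GENCODE M21 and RefSeq were joined by gene ID.

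Genes with enough counts (filterByExpr, minimum count 10 and minimum total 15) were fitted with edgeR 4.0.16 (R 4.3.3): TMM factors, a robust quasi-likelihood fit and 3 group means in 1 model, with Benjamini-Hochberg adjustment over all tested genes and calls at an adjusted p below 0.05. Levels in the text are CPM scaled with TMM factors, except in the rule on mean CPM. DESeq2 1.42.0, limma 3.58.1 voom, other scalings, covariates, library sets and thresholds were alternatives. The fit was tested on simulated data. Total counts limit the precision of low genes.

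Named RNAs are the 10 most abundant, up to 8 called in each direction per comparison whose sign held in every fit without 1 library, a fixed list of known RNAs, and the genes beside them; Nctc1, Prr33, Myhas, 2310065F04Rik, A930016O22Rik, Peg13 and Tmem250-ps were singled out after their values were seen where the rule did not name them. The RNAs and lists were chosen with earlier results of these data known. 1 coding gene beside a named RNA is not reported here.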

Additional observations from a re-analysis of the deposited data

Results flagged for a closer look

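Among 50 named RNAs in 3 groups, 150 sets of 6 libraries, 15 had 1 library farther from the others than Dixon's 95% critical value allows; chance gives about 1 in 20.

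Smoke library 5 was apart in 6 of them. It held 44.5 CPM of Gas5, where the nearest smoke library had 76.2 CPM, 52.6 CPM of Gm10076 (nearest 89.9 CPM), 5.62 CPM of Zfas1 (nearest 15.4 CPM) and 1.96 CPM of D830026I12Rik (nearest 4.57 CPM), all low. It was high for Norad (2900097C17Rik) at 310 CPM (nearest 272 CPM) and for Gm15691 at 33.1 CPM (nearest 17.4 CPM). Over the 224 RNAs, smoke 5 was the lowest of the 6 smoke libraries for 88.

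Room air library 3 was high for Gm26917 at 105 CPM (nearest 47.3 CPM), Mir17hg at 16.8 CPM (nearest 9.26 CPM) and Gm43305 at 38.9 CPM (nearest 12.4 CPM). Room air 4 held 42.4 CPM of Gm15691 (nearest 25.3 CPM). In e-cigarette libraries, Tug1 was 87.5 CPM in library 5 (nearest 67.8 CPM), Gm43305 6.93 CPM in library 3 (nearest 3.35 CPM) and D830026I12Rik 11.0 CPM in library 6 (nearest 8.15 CPM). Smoke library 2 held 7.16 CPM of Snhg15 (nearest 4.91 CPM), and smoke library 1 held 51.7 CPM of Nctc1 (nearest 38.2 CPM).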

How the results depend on the processing

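Smoke against room air, with 7 RNAs called, was the least stable count. It was 13 with DESeq2, 20 with voom, 4 with library totals as scaling, 2 with no filter on low counts, 1 with only the 2 groups fitted, 0 by edgeR with the replicate block (46 at an unadjusted p below 0.05), 4 with a thyroid score, 0 by edgeR with 4 marker scores (59 at an unadjusted p below 0.05), 2 without e-cigarette 2, 4, 5 and 6, and 0 at an adjusted p below 0.01. Leaving out 1 library gave 1 (without room air 4) to 10 (without room air 2). E-cigarette against room air, with 61, went to 0 by edgeR with a thyroid score (25 at an unadjusted p below 0.05), 3 with 4 marker scores, 11 without e-cigarette 2, 4, 5 and 6 and 33 at an adjusted p below 0.01, and lay between 51 and 61 without 1 library. Smoke against e-cigarette, with 44, went to 0, 0, 3 and 16 under those same changes (17 and 14 at an unadjusted p below 0.05 by edgeR for the 2 counts of 0) and to 28 (without smoke 3) to 47 without 1 library. With a limit of 10 CPM on the mean the 3 counts were 3, 27 and 23, and with 2 CPM 12, 138 and 93, because fewer or more RNAs are counted. The counts of the other settings stayed within 1.5 times. Among the called RNAs, directions turned for 3 of 61 with a thyroid score and 6 of 61 with 4 scores for e-cigarette over room air, and for 2 and 6 of 44 for smoke over e-cigarette. Of the named RNAs, e-cigarette over room air with a thyroid score gave 0.36 for Gm15691 and 0.62 for 4930426D05Rik, and with 4 scores 0.0071, 0.60, 0.025 for AC154546.2 and -0.10 for BC006965. Smoke over e-cigarette gave -0.41 for Gm15691 and -0.52 for 4930426D05Rik with a thyroid score, and -0.92, -0.23 and -0.0059 for Gm13111 with 4 scores. The cause was not tested. No pairing by replicate number was seen: same-numbered deviations correlated at -0.29 to 0.12, -0.31 to -0.02 and -0.45 to 0.16 in the 3 comparisons. In each, 0 of 6 numbers matched best with their own. Such correlations cannot exclude a weak pairing, because other differences between libraries can hide it. With the replicate block the last 2 comparisons had 50 and 31 calls. Low counts limit RNAs near 5 CPM most.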

Other observations

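Of the 2 RNAs whose host genes carry the same microRNA seeds, Mir100hg and Mir99ahg, the levels per kilobase of exon were 3.48 and 0.65 CPM. A cluster of called RNAs lay on chromosome 7 with e-cigarette aerosol over room air, Prr33, Nctc1 and H19, within 37.8 and 16.9 kb of each other in turn, with log2 fold changes of 0.63, 0.89 and 0.71. BC006965 and 2610035D17Rik, 262 kb apart on chromosome 11, were called in opposite directions, 1.40 and -0.37. Of 16 factors of nonsense-mediated decay, the pathway that degrades many spliced host RNAs, 1 was called higher and 1 lower with e-cigarette aerosol and none with smoke by edgeR (5 at an unadjusted p below 0.05, 1 called by DESeq2; 11 of 16 below 0, median -0.05). Of all tested genes, 25.1% were called with e-cigarette aerosol against room air and 1.59% with smoke.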
